A study of Mus musculus with 12 samples.

Results

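The chromatin around 10 contractile and cytoskeletal genes that are known targets of serum response factor (SRF) was examined in fibroblasts of mouse embryos (MEFs) and in embryonic stem cells of the mouse (mESCs). The genes were Acta2, Actg2, Tagln, Myl9, Cnn1, Cnn2, Tpm1, Tpm2, Srf and Vim. Members were all accessible regions (peaks) that overlapped the GENCODE M21 body of one of these genes, extended by 20 kb on either side, whatever their signal in either cell type. This gave 83 of the 91354 peaks detected with BGI sequencing and 80 of the 87027 peaks detected with Illumina sequencing.

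Omni-ATAC-seq uses the Tn5 transposase to insert sequencing adapters into open chromatin, so reads in a peak measure accessibility, not transcription. MEFs had been sorted as THY1+ cells from fibroblast cultures, and mESCs as THY1-/SSEA1+/EPCAM+ cells, both on a C57/Bl6 background and with no treatment named. There were 3 libraries per cell type, described as biological replicates with MEF libraries 1, 2 and 4 and mESC libraries 1, 3 and 5. Each of the 6 was sequenced by both BGI (DNBSEQ-G400) and Illumina (HiSeqX10), so the platforms gave 12 samples but no additional biological replicates.

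SRF is a DNA-binding factor that recognizes the CArG box, 10 bases made of CC, 6 A or T bases, and GG. Myocardin-related transcription factors (MRTFs), which are held back by monomeric actin, join SRF at genes of the contractile cytoskeleton, while ternary complex factors such as ELK1 join it at immediate early genes. Smooth muscle and activated fibroblasts are known for strong use of the MRTF branch, and SRF also acts on its own gene.

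Values below are CPM, the reads in a peak per 1 M reads in all peaks of a sample, given for MEF libraries 1, 2 and 4 and then mESC libraries 1, 3 and 5, and refer to BGI reads unless Illumina is named. All peaks were 502 bp wide, so levels need no length correction between peaks, but they were not corrected for GC content. Log2 fold changes are mESC against MEF with a standard error (SE), from edgeR's quasi-likelihood test over all peaks of a platform, and a peak was called at a Benjamini-Hochberg adjusted p below 0.05. Samples held between 15.9 and 21.7 M BGI reads in peaks. The libraries are bulk samples, in which fewer cells with an open site and less opening per cell cannot be told apart. A peak entered the data by being reproducible in at least 1 of the cell types, so peaks listed in only 1 of them were in part selected for a difference.

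Exact CArG boxes were found in 9 of the 83 member peaks (10.8%), against 2.55% of all BGI peaks and 1.99% of all promoter peaks. Promoter peaks are those no more than 1 kb from the start site of an annotated transcript (TSS). The excess lay at the genes' own promoters, with 7 of 27 peaks within 1 kb of the member gene's TSS (25.9%). Promoter peaks of other genes held a box in 1 of 22 cases (4.55%). Peaks over 1 kb from every TSS did so in 1 of 34 (2.94%), against 2.81% of all such peaks. The genes were chosen as known SRF targets, so boxes at their own promoters are no independent finding. Of the 9, 5 are shown for the sites that their results turn on, and the Cnn1 peak is added because it was the 1 peak with a box that was not lower in mESCs. Each line is read 5′ to 3′ on the strand of its gene from the RefSeq GRCm38.p6 genome, with the CArG boxes in capitals and up to 30 bases around them.
Acta2, chr19:34265804-34265873, minus strand, intergenic: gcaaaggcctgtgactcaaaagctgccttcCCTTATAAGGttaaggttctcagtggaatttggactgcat
Actg2, chr6:83536257-83536363, minus strand, promoter: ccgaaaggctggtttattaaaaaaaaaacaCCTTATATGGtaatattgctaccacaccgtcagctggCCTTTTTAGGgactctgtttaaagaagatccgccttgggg
Myl9, chr2:156775273-156775342, plus strand, promoter: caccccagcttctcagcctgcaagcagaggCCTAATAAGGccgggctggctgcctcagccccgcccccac
Cnn1, chr9:22100096-22100165, plus strand, within the gene and outside its exons: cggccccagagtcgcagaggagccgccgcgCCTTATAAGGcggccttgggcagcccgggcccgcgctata
Cnn2, chr10:79988514-79988583, plus strand, promoter: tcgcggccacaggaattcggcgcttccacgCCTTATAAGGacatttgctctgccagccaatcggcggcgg
Srf, chr17:46556185-46556274, minus strand, promoter: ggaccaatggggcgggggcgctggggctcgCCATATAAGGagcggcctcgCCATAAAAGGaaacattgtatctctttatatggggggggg

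The same 10 letters, CCTTATAAGG, occurred upstream of Acta2, at the Cnn2 promoter and inside Cnn1. The boxes lay 31 and 68 bases from the gene start in Actg2, 117 in Myl9, 40 in Cnn2, and 49 and 69 in Srf, whereas the Acta2 box lay 10253 bases from the start. Those at the promoters named here were upstream of the gene start. The pattern requires an exact match, and a missing match says only that these letters were not in the 502 bp of a peak. Of the 9 peaks with a box, 8 were lower in mESCs, 0 were higher and the median log2 fold change was -2.02. The 74 other member peaks had 46 lower, 17 higher and a median of -0.55. Of the 9, 7 lay within 1 kb of their own gene's TSS, where 21 of all 27 member peaks were lower. Across all BGI peaks, 52.4% of those with a CArG box were lower in mESCs, against 43.0% of those without.

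Across the 10 genes, 54 of 83 peaks were lower in mESCs, 17 were higher and 12 were not called. Over all BGI peaks, 43.2% were called lower and 40.9% higher, so calls were common, while the balance between directions was near even. The median log2 fold change was -0.62 for the member peaks and -0.08 for all peaks. The CPM values of the cell types did not overlap at 71 of the 83 peaks, which is close to the 85.1% of all peaks. Counting only changes of 1 or more on the log2 scale, 32 member peaks were lower and 9 higher, against 30.1% and 33.0% of all BGI peaks. On Illumina reads, 50 of 80 peaks were lower and 17 higher, against 42.4% lower and 42.1% higher of all Illumina peaks.

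Many peaks in these windows sit closer to another gene. The nearest TSS was that of the member gene for 46 peaks, of which 35 were lower, 8 higher and 3 not called (median log2 fold change -0.95). For the remaining 37 peaks the nearest TSS belonged to another gene, with 19 lower, 9 higher and 9 not called (median -0.28). By position, 19 of 23 intronic or intergenic peaks were lower and 2 higher, and 4 of 11 exonic peaks were lower and 6 higher. Shares over all peaks at these positions were not computed, so the split cannot be called particular to these genes. Of the 8 higher peaks over 1 kb from every TSS, 4 lay in the Cnn2 window and 2 in the Tpm2 window. Of the 49 promoter peaks of any gene, 31 were lower and 9 higher, against 41.0% and 31.3% of all BGI promoter peaks.

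**Figure D1:**
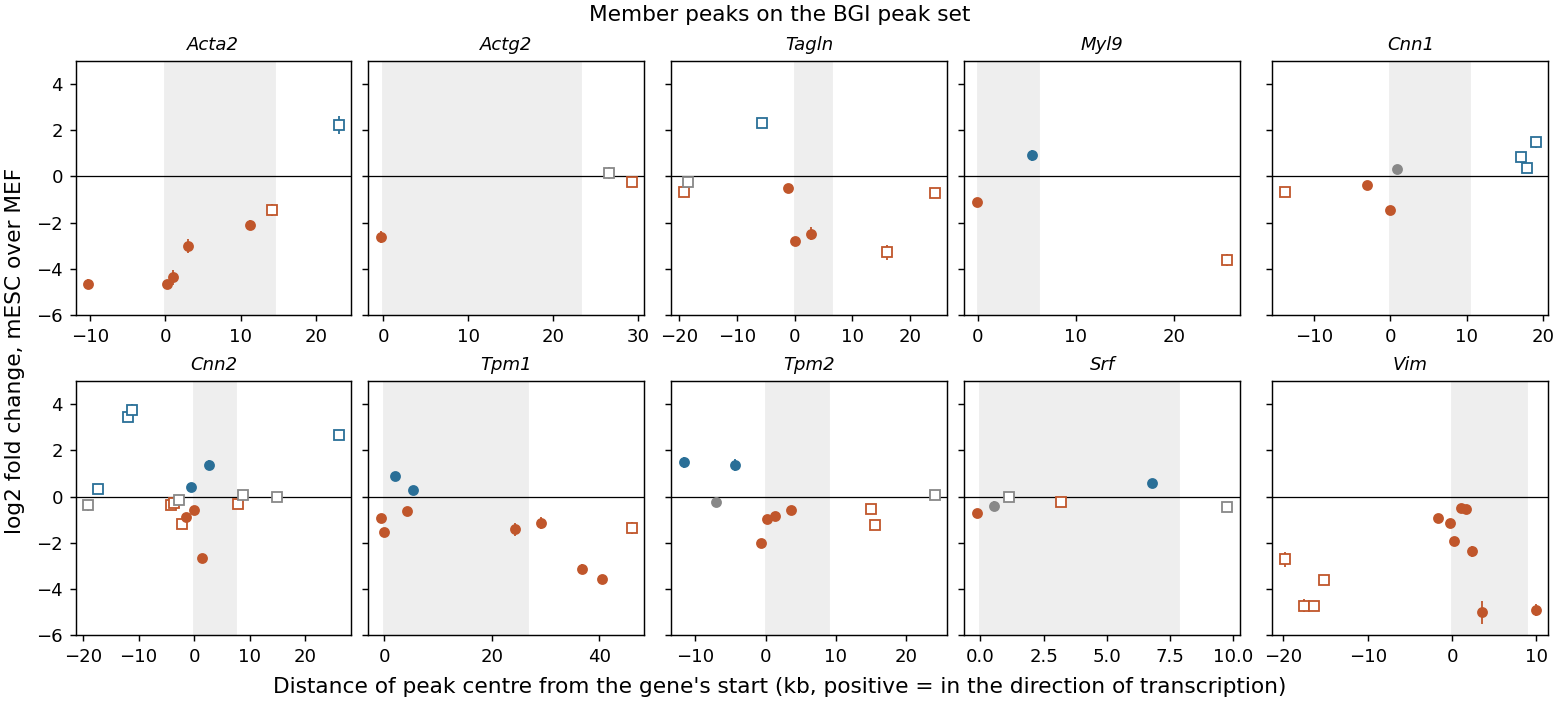
Log2 fold change of accessibility, mESC against MEF, with SE, for the 83 member peaks on BGI reads, plotted against distance from the gene start in kb, with 1 panel per gene and the gene body in grey. Filled circles have the member gene's TSS as the nearest, open squares that of another gene, with orange for lower, blue for higher and grey for not called. All 12 Vim peaks lie below 0, while the Cnn2 window holds 7 lower and 6 higher peaks.

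The promoter peak of each gene, taken as the peak within 1 kb of its own TSS with the highest mean CPM, was lower in mESCs for all 10 genes. Over all BGI promoter peaks, 41.0% were lower and 31.3% higher. This rule takes 1 peak per gene, and over all 27 member peaks within 1 kb of their own TSS, 21 were lower, 3 higher and 3 not called. In MEFs the mean level was highest at Srf (84.2 CPM), then Tagln (59.3), Acta2 (55.3), Tpm1 (50.2), Vim (40.7), Myl9 (38.6), Tpm2 (28.2), Cnn1 (16.7), Cnn2 (14.7) and Actg2 (7.57). In mESCs the order of mean CPM was Srf (53.4), Vim (19.4), Myl9 (19.0), Tpm1 (18.0), Tpm2 (15.2), Cnn2 (10.4), Tagln (8.89), Cnn1 (6.47), Acta2 (2.32) and Actg2 (1.28). Acta2 therefore held the third place in MEFs and the ninth in mESCs. Among neighbours in the MEF order, the single values of Acta2 and Tpm1 and of Vim and Myl9 overlapped. In MEFs, the Cnn2 promoter read lower on BGI than on Illumina when readings were paired by library (log2 fold change -0.37, SE 0.08). Its place below Cnn1 is therefore given for BGI reads alone. In mESCs, the values of Vim, Myl9 and Tpm1 overlapped, as did those of Cnn2 and Tagln.

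**Figure D2:**
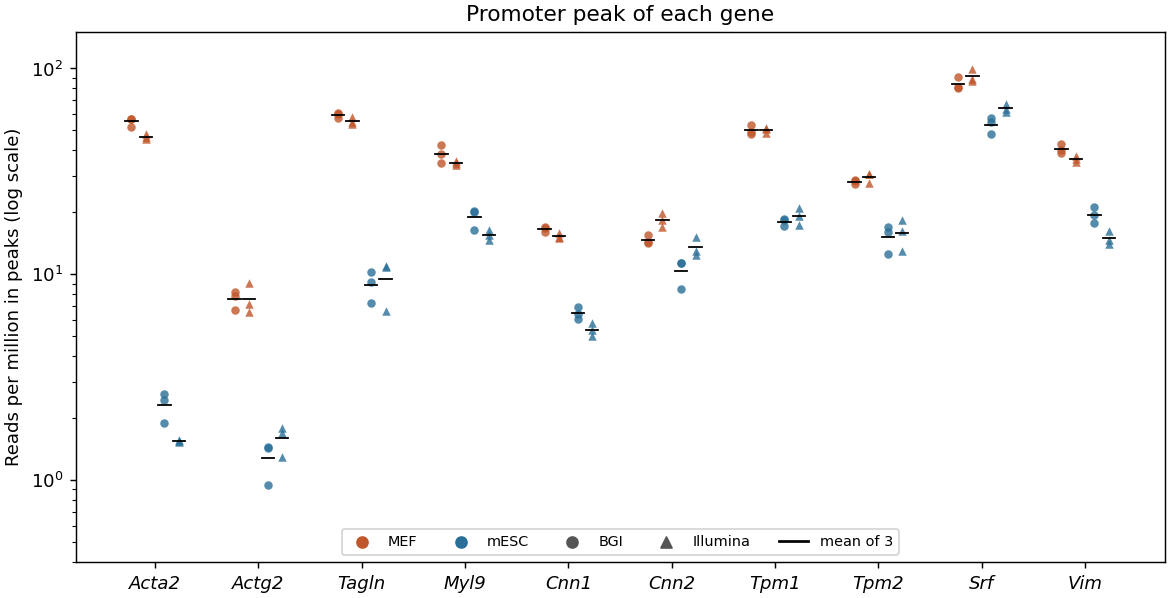
Accessibility of the promoter peak of each of the 10 genes in CPM on a log axis, with 1 point per sample, MEF in orange and mESC in blue, BGI as circles and Illumina as triangles, and bars for the mean of 3 libraries. The cell types are farthest apart at Acta2, and Srf has the highest level in both.

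Acta2 encodes smooth muscle alpha-actin, a marker of smooth muscle and of myofibroblasts. Its promoter peak (chr19:34255158-34255659) measured 57.1, 56.6 and 52.2 CPM in MEFs and 2.46, 1.89 and 2.61 CPM in mESCs. Every MEF library was far above every mESC library, and the fitted level was 25.0-fold lower in mESCs (log2 fold change -4.64, SE 0.14, edgeR adjusted p = 5.43e-14). Illumina reads gave 48.1, 46.2 and 45.3 CPM in MEFs and 1.56, 1.53 and 1.55 CPM in mESCs (log2 fold change -4.95, SE 0.13).

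The peak with the CArG box shown above (chr19:34265638-34266139, centred at -10298 bp from the gene start) was intergenic, with Acta2 as the nearest gene. It held 28.9, 28.9 and 26.0 CPM in MEFs against 1.26, 0.650 and 1.55 CPM in mESCs. This peak had the largest decrease in the Acta2 window (log2 fold change -4.67, SE 0.21, edgeR adjusted p = 1.96e-12), and only 4.50% of all BGI peaks lay further in that direction. Summed over the 5 peaks nearest to the Acta2 TSS, accessibility was 109.83 ± 1.59 CPM in MEFs and 7.45 ± 1.15 CPM in mESCs (SD, n = 3). The 1 peak of the window that was higher in mESCs was at the promoter of the neighbour Stambpl1 (chr19:34232297-34232798), with 1.38, 1.74 and 0.448 CPM in MEFs and 3.91, 7.57 and 6.40 CPM in mESCs (log2 fold change 2.25, SE 0.38).

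Actg2 encodes the gamma-actin of enteric smooth muscle, and its promoter peak (chr6:83536275-83536776) was the weakest of the 10. It measured 7.85, 8.20 and 6.67 CPM in MEFs and 1.45, 0.946 and 1.43 CPM in mESCs, with no overlap (log2 fold change -2.64, SE 0.26, edgeR adjusted p = 3.79e-08). No other peak in its window had Actg2 as the nearest gene. The strongest of them, at the promoter of Dguok, held 58.7, 53.8 and 63.4 CPM in MEFs and 50.1, 56.2 and 49.8 CPM in mESCs. There the cell types overlapped, the log2 fold change was -0.24 (SE 0.09, edgeR adjusted p = 0.0226), and on Illumina reads the peak was not called (-0.15, adjusted p = 0.0896).

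Myl9 encodes a regulatory light chain of smooth muscle and non-muscle myosin II, whose phosphorylation controls contraction. Its promoter peak (chr2:156775095-156775596) read 34.7, 38.6 and 42.4 CPM in MEFs and 20.4, 20.2 and 16.5 CPM in mESCs. The groups did not overlap, and the decrease was 2.12-fold (log2 fold change -1.08, SE 0.11, edgeR adjusted p = 7.51e-08). An exonic peak of the same gene (chr2:156780688-156781189) went the other way, from 5.72, 3.73 and 2.94 CPM in MEFs to 8.95, 8.16 and 7.64 CPM in mESCs (log2 fold change 0.92, SE 0.24, edgeR adjusted p = 0.00170). The largest decrease in the window was at an intergenic peak beyond the 3′ end (chr2:156800591-156801092), nearest to Gm14231. There 10.4, 8.05 and 11.3 CPM in MEFs stood against 0.567, 1.12 and 0.808 CPM in mESCs (log2 fold change -3.62, SE 0.28).

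Tagln encodes transgelin (SM22-alpha), an actin-binding protein of smooth muscle. With 60.01, 60.6 and 57.4 CPM in MEFs and 9.14, 7.21 and 10.3 CPM in mESCs, its promoter peak (chr9:45935801-45936302) was 7.01-fold lower in mESCs (log2 fold change -2.81, SE 0.12, edgeR adjusted p = 1.18e-12). Illumina reads gave a log2 fold change of -2.60 (SE 0.13). The Tagln and Acta2 promoters, at mean levels of 59.3 and 55.3 CPM in MEFs, held 8.89 and 2.32 CPM in mESCs, where every Tagln value exceeded every Acta2 value.

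The windows on either side of Tagln held peaks that moved in opposite directions. The largest decrease was at a start site of Pcsk7 (chr9:45919837-45920338), where a CArG box was also present, with 6.51, 7.75 and 8.76 CPM in MEFs and 0.757, 1.24 and 0.435 CPM in mESCs (log2 fold change -3.28, SE 0.32). At a start site of Sidt2 (chr9:45941394-45941895), MEFs had 4.89, 6.36 and 4.23 CPM and mESCs 27.0, 27.0 and 28.0 CPM, a 5.04-fold increase (log2 fold change 2.33, SE 0.15, edgeR adjusted p = 1.97e-10). The summed CPM of the 5 peaks nearest to other genes was 71.9 ± 2.80 in MEFs and 70.4 ± 1.04 in mESCs (SD, n = 3), whereas the 3 peaks nearest to Tagln summed to 83.7 ± 4.003 and 23.1 ± 2.97 CPM.

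Cnn1 and Cnn2 encode calponins, which bind actin and modulate the actomyosin ATPase, with calponin 1 largely restricted to smooth muscle and calponin 2 more widely used. At the Cnn1 promoter (chr9:22098954-22099455), 16.8, 17.0 and 16.1 CPM in MEFs compared with 6.43, 6.09 and 6.90 CPM in mESCs (log2 fold change -1.43, SE 0.15, edgeR adjusted p = 5.30e-08). The libraries of each cell type lay close together and apart from those of the other. The peak with the CArG box inside Cnn1 (chr9:22099864-22100365) was the exception among the CArG peaks. It held 7.20, 7.41 and 7.97 CPM in MEFs and 9.27, 9.58 and 10.9 CPM in mESCs, and was not called (log2 fold change 0.33, SE 0.16, edgeR adjusted p = 0.0663).

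In the Cnn1 window, the strongest peak was at the promoter of Ecsit, with a log2 fold change of -0.68 (SE 0.11). The 3 peaks higher in mESCs were at the promoters of Elof1 and 6530413G14Rik, the largest with 2.12, 2.39 and 1.99 CPM in MEFs and 6.05, 5.85 and 7.14 CPM in mESCs (log2 fold change 1.48, SE 0.24).

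Cnn2 showed the smallest promoter decrease of the 10 genes. Its promoter peak (chr10:79988343-79988844) read 14.2, 14.4 and 15.4 CPM in MEFs and 11.3, 11.3 and 8.51 CPM in mESCs (log2 fold change -0.57, SE 0.15, edgeR adjusted p = 0.00211). The ranges stayed apart, by a narrow margin. An intronic peak of the gene (chr10:79989811-79990312) fell much further, from 15.6, 13.5 and 11.9 CPM to 2.58, 2.01 and 2.17 CPM (log2 fold change -2.67, SE 0.20). The window is dense in genes, and 12 of its 17 peaks lay nearest to another TSS, of which 4 were lower, 4 higher and 4 not called. The strongest increase among all member peaks was here, in an exon of Tmem259 (chr10:79977226-79977727), at 1.02, 0.795 and 1.15 CPM in MEFs and 12.7, 14.8 and 15.2 CPM in mESCs (log2 fold change 3.78, SE 0.22, edgeR adjusted p = 5.08e-11). The peak with the highest CPM, near Gm26243, held 74.4, 71.3 and 74.8 CPM in MEFs and 60.1, 68.2 and 61.7 CPM in mESCs (log2 fold change -0.28, SE 0.08, edgeR adjusted p = 0.00521).

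Tpm1 and Tpm2 encode tropomyosins, coiled-coil proteins that run along actin filaments and set which partners can bind. At the upstream Tpm1 promoter (chr9:67049155-67049656), 48.3, 48.9 and 53.3 CPM in MEFs faced 17.1, 18.5 and 18.4 CPM in mESCs, a 2.91-fold decrease (log2 fold change -1.54, SE 0.10, edgeR adjusted p = 1.02e-10). An internal promoter peak (chr9:67043751-67044252), at the starts of shorter annotated transcripts, read 27.6, 24.3 and 32.4 CPM in MEFs and 38.8, 37.2 and 32.6 CPM in mESCs. It was slightly higher in mESCs (log2 fold change 0.30, SE 0.11, edgeR adjusted p = 0.0199), with the closest MEF and mESC libraries almost equal, and on Illumina reads the value was 0.40 (SE 0.09).

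The upstream and internal Tpm1 promoters thus exchanged rank between the cell types. The ratio of internal to upstream CPM was 0.571, 0.496 and 0.608 in MEFs and 2.26, 2.01 and 1.76 in mESCs. The group means were 0.558 ± 0.0567 and 2.01 ± 0.250 (SD, n = 3). The internal peak was chosen after its values were seen, so these ratios are a description and carry no test. Illumina reads of the same libraries gave ratios of 0.659 ± 0.104 and 2.35 ± 0.257 (SD, n = 3).

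Downstream of Tpm1, a run of intergenic peaks was strongly lower in mESCs. The largest decrease was at chr9:67008699-67009200, with 32.9, 29.7 and 29.9 CPM in MEFs and 3.15, 2.78 and 2.30 CPM in mESCs (log2 fold change -3.56, SE 0.15). The next of these peaks had a log2 fold change of -3.13 (SE 0.23). An intronic peak at chr9:67047202-67047703 showed the largest increase of the window (log2 fold change 0.88, SE 0.21).

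Tpm2 was lower at each of its 4 peaks within 1 kb of a Tpm2 TSS. The strongest (chr4:43523350-43523851) held 27.6, 28.6 and 28.3 CPM in MEFs and 12.5, 17.0 and 16.1 CPM in mESCs (log2 fold change -0.96, SE 0.12, edgeR adjusted p = 1.08e-06). A neighbouring peak upstream (chr4:43524230-43524731), with a CArG box 623 bases from the gene start, fell further, from 22.3, 21.6 and 24.4 CPM to 5.11, 6.21 and 6.27 CPM (log2 fold change -2.02, SE 0.14, edgeR adjusted p = 4.83e-10). Away from start sites the picture differed: of 3 peaks over 1 kb from every TSS, 2 were higher in mESCs and 0 lower. The larger increase was in an exon of Tln1 (chr4:43535170-43535671), the gene of the adhesion protein talin, where 1.98, 2.68 and 2.54 CPM in MEFs compared with 6.62, 6.50 and 8.01 CPM in mESCs (log2 fold change 1.48, SE 0.23).

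Srf itself had the most accessible promoter of the 10 genes in both cell types, at the 99.3 percentile of mean CPM over all BGI peaks. The promoter peak (chr17:46556067-46556568) read 80.1, 81.7 and 90.7 CPM in MEFs and 54.9, 57.3 and 48.1 CPM in mESCs, so it stayed strongly open in mESCs. The decrease was 1.65-fold (log2 fold change -0.72, SE 0.09, edgeR adjusted p = 8.19e-07). Illumina reads gave 88.5, 87.2 and 99.8 CPM in MEFs and 63.6, 67.0 and 61.8 CPM in mESCs (log2 fold change -0.56, SE 0.08). Of the 6 peaks in the Srf window, 2 were lower, 1 higher and 3 not called. The higher one (chr17:46549135-46549636) rose from 6.001, 5.27 and 6.07 CPM in MEFs to 9.39, 9.76 and 8.14 CPM in mESCs (log2 fold change 0.59, SE 0.18).

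Vim encodes vimentin, the intermediate filament protein of mesenchymal cells, and stood apart because every one of its 12 peaks was lower in mESCs. Summed over these peaks, accessibility was 252 ± 4.52 CPM in MEFs and 63.6 ± 4.09 CPM in mESCs (SD, n = 3), a ratio of 3.97. The promoter peak (chr2:13573411-13573912) fell from 38.8, 40.3 and 42.9 CPM to 21.2, 17.8 and 19.3 CPM (log2 fold change -1.13, SE 0.10, edgeR adjusted p = 8.73e-09). It therefore remained clearly open in mESCs, and 4 peaks within 1 kb of a Vim TSS had a median log2 fold change of -0.84.

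Over 1 kb from every TSS, the 8 peaks of the Vim window had a larger median decrease (log2 fold change -4.16, from -5.02 to -0.95). Those within 1 kb of a Vim TSS ran from -1.90 to -0.51, so the ranges overlapped. An upstream cluster of 4 intergenic peaks, nearest to the TSS of Trdmt1, had a median log2 fold change of -4.16 and summed to 91.2 ± 4.01 CPM in MEFs and 6.58 ± 0.543 CPM in mESCs (SD, n = 3). Its strongest peak (chr2:13558500-13559001) held 50.1, 53.3 and 44.3 CPM in MEFs, more than the Vim promoter peak itself, and 4.29, 4.02 and 4.35 CPM in mESCs (log2 fold change -3.61, SE 0.13). The largest decrease of all member peaks was in an exon of Vim (chr2:13577252-13577753), a weak peak with 128, 84 and 153 reads in MEFs and 3, 6 and 0 reads in mESCs (log2 fold change -5.02, SE 0.50, edgeR adjusted p = 4.10e-08). It had no Illumina counterpart, and the few mESC reads make its size uncertain. With 1 library left out, its log2 fold change ran from -5.91 to -4.45. The upstream Acta2 peak then ran from -4.93 to -4.35, so the rank of the Vim peak is uncertain too. Downstream, a peak at chr2:13583603-13584104 held 31.1, 29.4 and 19.5 CPM in MEFs and 0.757, 0.591 and 1.43 CPM in mESCs (log2 fold change -4.92, SE 0.26). The upstream cluster and this downstream peak were described after their values were seen.

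**Figure D3:**
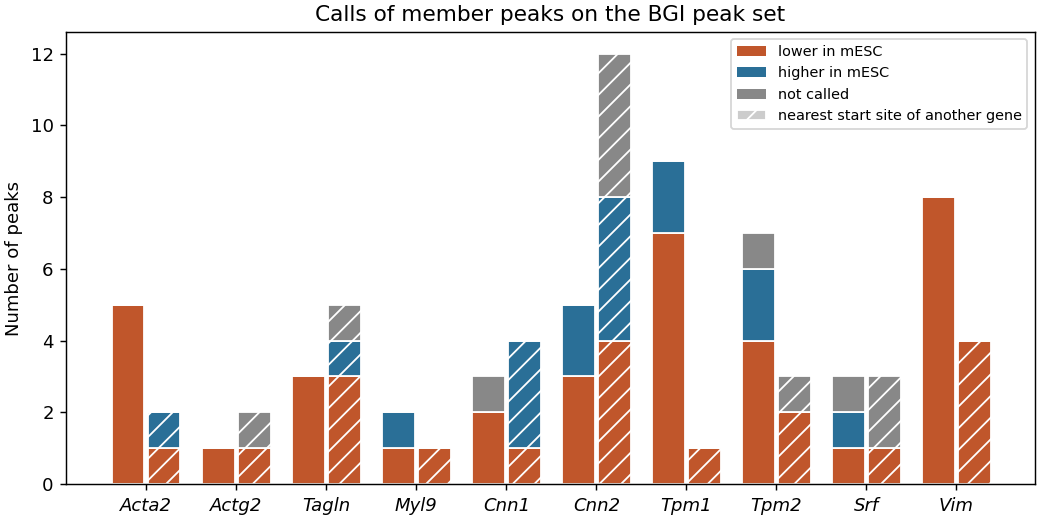
Number of member peaks of each gene called lower, called higher or not called in mESCs on BGI reads, as stacked bars, with hatching where the nearest TSS is that of another gene. Vim and Acta2 are almost wholly lower, with 12 of 12 and 6 of 7 peaks, and most of the Cnn2 bar is hatched.

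Other short patterns were counted in the same peaks on both strands. TGANTCA, the letters recognized by AP-1 factors, was in 19 of the 83 member peaks (22.9%), against 25.2% of all peaks. Of these 19 peaks, 16 were lower in mESCs and 1 higher. Over all BGI peaks, 61.0% of those with TGANTCA were lower, against 37.2% of those without. GGAATG, a core recognized by TEAD factors, was in 25 member peaks (30.1%) and in 31.7% of all peaks, and 16 of the 25 were lower and 4 higher. Over all BGI peaks, 51.0% of those with GGAATG were lower, against 39.6% of those without. A single peak could hold more than 1 of these patterns.

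The authors' peak calls in single samples give the promoters on another scale, the enrichment of a summit over background. In MEFs, a summit lay in the promoter peak of all 10 genes in all 6 readings, with median fold enrichment between 9.74 at Actg2 and 126 at Srf. In mESCs, a summit was called at the Acta2 promoter in 4 of 6 readings, with a fold enrichment of 2.66 to 4.46, and at the Actg2 promoter in 1 of 6. The other 8 promoters had a summit in all 6 mESC readings. In the reproducible BGI peak lists, 31 member peaks overlapped by at least 50% a peak of the MEF list only, 15 of the mESC list only and 37 of both. The same split was not counted over all BGI peaks, so it cannot be called particular to these genes.

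To set the 10 genes beside related genes, the promoter peaks of 63 listed genes, the 10 included, were examined, and 61 had one. Of these, 34 were lower in mESCs, 5 higher and 22 not called, while 41.0% of all promoter peaks were lower and 31.3% higher. The intermediate filament list is a gene family rather than a set of SRF targets, and it held 3 of the 5 higher promoters. Without the 10 members, 24 of 51 (47.1%) were lower, 5 higher and 22 not called, with a median log2 fold change of -0.19, against -0.13 for all promoter peaks. Among the other listed genes, the share of lower promoters was thus near that of all promoter peaks, while the share of higher ones (9.80%) was below it.

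Among the 8 listed regulators, 6 were lower and 1 higher. Mrtfb, which encodes an MRTF coactivator, was the most reduced, with 53.9, 56.6 and 56.1 CPM in MEFs and 5.30, 5.50 and 7.64 CPM in mESCs (log2 fold change -3.24, SE 0.13, edgeR adjusted p = 5.15e-13). Its paralogue Mrtfa held 65.9, 62.6 and 66.8 CPM in MEFs and 63.1, 73.3 and 66.5 CPM in mESCs and was not called (log2 fold change -0.01, SE 0.09, edgeR adjusted p = 0.902). Fhl2, a LIM-domain cofactor of SRF, was lower (log2 fold change -1.57), as were Myocd, Elk3 and Elk4 by less than 0.5 on the log2 scale. Elk1 was the regulator that was higher (log2 fold change 0.24, SE 0.11, edgeR adjusted p = 0.0455).

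Of the widely expressed cytoplasmic actins, Actb was not called (log2 fold change 0.08, SE 0.10). Actg1 was called lower, as were the smooth muscle actin genes Acta2 and Actg2, but by less (log2 fold change -0.61, SE 0.13). Acta1 and Actc1, the actins of skeletal and cardiac muscle, had no promoter peak. Of the myosin genes and the kinase gene Mylk, 5 of 8 were lower and 0 higher, where Myl12a and Myl12b share 1 promoter peak. Of the tropomyosins, calponins and transgelins, 7 of 10 were lower and 0 higher, and Tpm3 (log2 fold change 0.12), Cnn3 (-0.06) and Tagln2 (-0.18) were not called. For actin-binding and adhesion genes, 6 of 14 were lower, led by Tgfb1i1 (Hic-5, log2 fold change -2.66, SE 0.14), and 1 was higher, Lima1 (0.85, SE 0.11).

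The list of immediate early genes had 4 of 9 promoters lower and 0 higher, with log2 fold changes from -0.71 at Ccn1 to 0.05 at Junb. It was not divided by SRF cofactor. The intermediate filament genes were split evenly, with 3 lower, 3 higher and 2 not called. Vim, Des (log2 fold change -1.52) and Gfap (-0.47) were lower. The epithelial keratins Krt8 (log2 fold change 0.91, SE 0.13) and Krt18 (1.06, SE 0.19) and the neuronal filament gene Prph (1.03, SE 0.14) were higher.

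**Figure D4:**
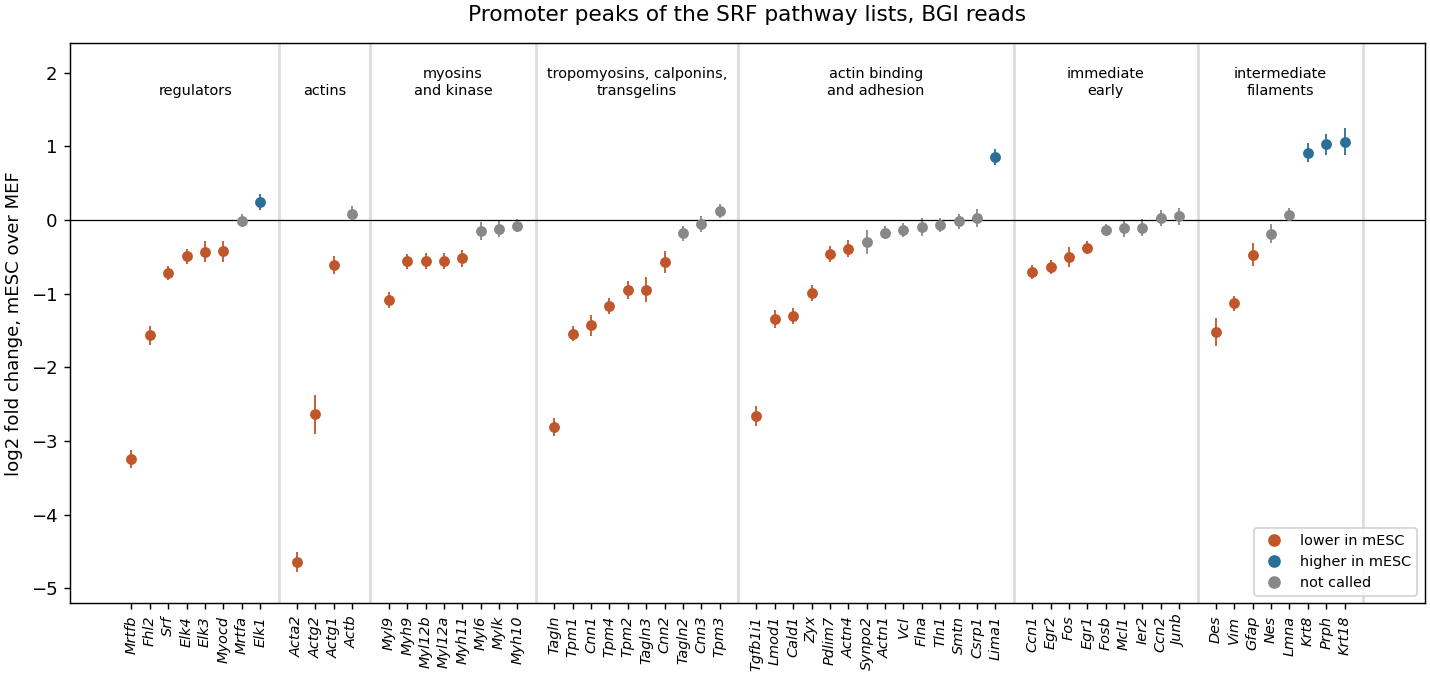
Log2 fold change of promoter accessibility, mESC against MEF, with SE, for the 61 listed genes that had a promoter peak on BGI reads, grouped by list. The lowest points are Acta2, Mrtfb and Tagln, and the keratins and Prph lie above 0.

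Markers of the labelled cell types followed the labels. The promoters of all 5 fibroblast genes (Thy1, Col1a1, Col1a2, Fbn1 and Twist2) were lower in mESCs, with their summed CPM between 168 and 198 in MEFs and 46.5 and 48.0 in mESCs. Those of all 5 mESC genes (Pou5f1, Nanog, Esrrb, Zfp42 and Epcam) were higher, with sums of 12.5 to 13.7 CPM in MEFs and 130 to 155 CPM in mESCs. Smooth muscle genes (Myh11, Myocd, Lmod1 and Des, which the gene lists above also hold) had promoter peaks in 4 of 4 cases and were lower in mESCs. Their sums were 75.6 to 83.4 CPM in MEFs and 42.6 to 49.2 CPM in mESCs. They moved in the same direction as the 10 genes, and the part of smooth muscle-like cells in the result was not tested. Of 3 genes each for skeletal muscle, endothelium, blood and epithelium, 1 in each list had a promoter peak. Myod1, Tal1 and Cdh1 were higher in mESCs and Pecam1 was not called, while Myf5, Myog, Cdh5, Tie1, Ptprc, Spi1, Krt5 and Krt14 had none.

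The comparison of platforms asked whether these differences depended on the sequencer. Of the 83 BGI peaks, 75 had an Illumina counterpart that overlapped by at least 50%, and 69 of these had the same call, 0 the opposite, 4 a call on BGI reads alone and 2 on Illumina reads alone. The median absolute difference of the log2 fold changes was 0.10. The largest difference, 1.62, was at a peak of the upstream Vim cluster (chr2:13556180-13556681), with 0.504, 0.710 and 0.373 CPM in mESCs on BGI reads and 0.125, 0.236 and 0.124 CPM on Illumina reads, the latter from 2, 4 and 2 reads. Both platforms read the same 6 libraries, so this is a repeat of the readout.

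**Figure D5:**
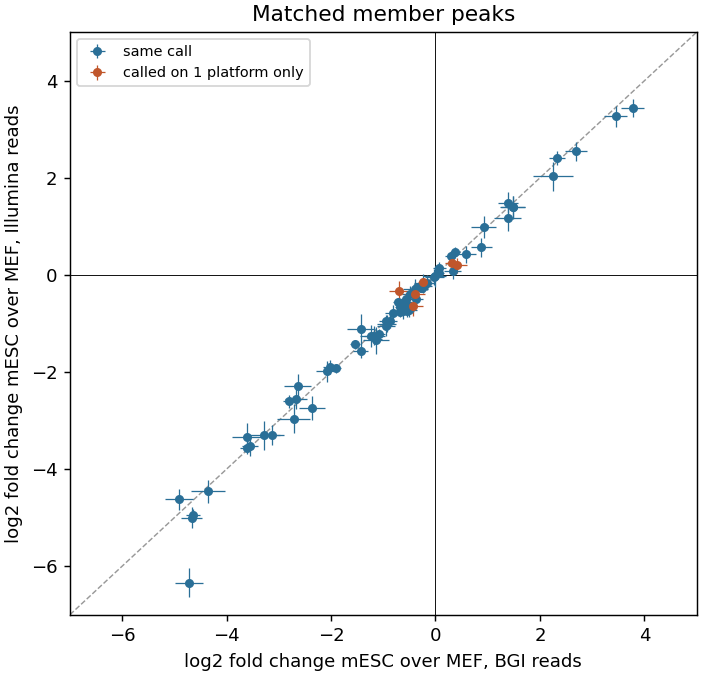
Log2 fold change, mESC against MEF, on Illumina and on BGI reads with SE for the 75 matched member peaks, with the dashed line marking equal values. Most points lie on the line, with a median absolute difference of 0.10 and a largest difference of 1.62.

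When BGI and Illumina reads were compared within a cell type on the BGI peaks, 1 of 83 member peaks was called in MEFs, against 4.90% of all peaks. This peak (chr17:46555380-46555881), just inside Srf and 75.9% GC, held 6.51, 8.55 and 9.71 CPM in MEFs on BGI reads, and its Illumina counterpart 11.2, 13.3 and 15.9 CPM on Illumina reads. It was lower on BGI (log2 fold change BGI against Illumina -0.82, SE 0.16, edgeR adjusted p = 0.00400). In mESCs, edgeR called 0 of 83 peaks, against 0.868% of all peaks, with 15 at an unadjusted p below 0.05, which 9.71% of all peaks reached. DESeq2 called 2 of the 48 member peaks to which it gave an adjusted p, against 6.70% of all such peaks.

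With the library as a block, which pairs the readings of each library, edgeR called 18 member peaks in MEFs (13 lower and 5 higher on BGI, against 17.7% of all peaks called) and 13 in mESCs (5 lower and 8 higher, against 15.8%). Adding a GC offset left 9 in MEFs (7 lower and 2 higher, against 9445 of all 91354 peaks). It left 3 in mESCs (0 lower and 3 higher, against 4426). DESeq2 with the block called 4 of 58 tested in MEFs (1 lower and 3 higher, against 7730 of all 48846 tested). In mESCs it called 5 of 48 (3 lower and 2 higher, against 4504 of 38220). In the edgeR block fit without the GC offset, the median GC content of the peaks lower on BGI was 63.8% in MEFs and 69.5% in mESCs. Over all member peaks it was 53.2%. In the same fit, the Cnn2 promoter was lower on BGI in both cell types (log2 fold change -0.37, SE 0.08, in MEFs and -0.32, SE 0.09, in mESCs). Its mESC call was lost with the GC offset. The Acta2 promoter was higher on BGI in MEFs (0.13, SE 0.05) and the Myl9 promoter in mESCs (0.36, SE 0.08). The interaction of platform and cell type was called at 0 of 83 peaks by edgeR with or without the block and at 0 by DESeq2, against 0.00% of all peaks by edgeR without the block and 0.386% with it. At an unadjusted p below 0.05 stood 2 member peaks without the block, against 2.61% of all peaks, and 12 with it, against 13.2%.

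The nearest peaks outside the 20 kb limit, at 21.0 to 34.8 kb from the gene bodies, had log2 fold changes below 0 for 6 genes and above 0 for 4. Some of these values were small beside their SE, so the signs are a description. At Vim, the outermost peak inside the limit, 19.6 kb from the gene body, had a log2 fold change of -2.72, and the nearest outside, at 29.3 kb, had -0.51. At Tpm1 the corresponding values were -1.36 at 19.0 kb and -0.20 (SE 0.18) at 21.0 kb, and at Tagln -0.68 at 18.9 kb and -0.28 at 22.5 kb. Tpm2 went the other way, with 0.08 (SE 0.13) at 14.8 kb inside the limit and -0.39 outside. The nearest outside peaks of Acta2 (34.8 kb, -1.46), Tpm2 (21.0 kb, -0.39) and Cnn2 (23.3 kb, -0.21, SE 0.15) were also below 0. Those of Cnn1 (21.5 kb, 1.35), Srf (22.3 kb, 1.24), Actg2 (26.8 kb, 0.95) and Myl9 (27.8 kb, 0.42) were above 0.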

How the data were processed

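Omni-ATAC-seq was performed by the authors on 3 MEF and 3 mESC libraries. Per the labels and the study's methods, reads were aligned to GRCm38 (mm10), Illumina reads were trimmed to the BGI length, samples were down-sampled to 60 M (MEF) or 45 M (mESC) reads, and peaks were called per sample with MACS2. The deposited tables give raw read counts per peak for each sample, without normalization. The authors' peak calls give a fold enrichment ratio of each summit over background and the -log10 of its p-value.

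Members and gene lists were chosen with earlier results of these data known. CPM used all reads in the peaks of a set: 20.1 to 21.7 M (MEF) and 15.9 to 16.9 M (mESC) for BGI, and 20.1 to 21.4 and 16.0 to 17.0 M for Illumina. Precision is limited by n = 3 libraries per cell type. Columns without a platform name were taken as Illumina. In each of the 6 libraries, count ratios between the columns followed the ratios of summit enrichment across peaks (Spearman rho 0.757 to 0.799).

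Counts were fitted with edgeR 4.0.16 (R 4.3.3), quasi-likelihood F test, TMM normalization and filterByExpr, which all peaks passed. P-values were Benjamini-Hochberg adjusted over all peaks of a set. The SE is the log2 fold change divided by the square root of F, without its sign. Cell types were compared within each platform, and platforms within each cell type over all 12 samples. MEFs and mESCs share only the number 1, so no block was used between them. Between platforms the same library was read on both, and deviations from the group mean correlated at r = 0.37 to 0.58 for the same library and -0.40 to -0.01 for different libraries, across peaks. DESeq2 1.42.0, other size factors, fixed library sizes, left-out libraries, other windows and a GC offset were the alternatives. The fits were also run on simulated data with 200 changed peaks. In the data, 76825 of 91354 BGI peaks were called between the cell types. The simulation therefore cannot check TMM normalization where most peaks change.

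Named for each gene were its promoter peak, the called peak with the largest change in each direction and the peak with the highest mean CPM. For platforms, at most 5 peaks per direction with the lowest p were considered. Annotation was GENCODE M21, and sequences and GC content came from RefSeq GRCm38.p6. Unused per-sample columns numbered 0. Tables of both platforms within a cell type were not used here. The sequence of 1 promoter with a CArG box is not reported here.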

Additional observations from a re-analysis of the deposited data

How the results depend on the processing

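Among the 28 named peaks, every log2 fold change kept its direction under all alternatives, and between 26 and 28 stayed called when 1 library was left out. The Dguok peak in the Actg2 window, whose change was small, lost its call without MEF library 1 or 4 or mESC library 1 or 5 (log2 fold change -0.19 to -0.21), and the Gm26243 peak in the Cnn2 window without MEF library 1 (-0.22). With each library size set to its depth after down-sampling, both lost it (-0.10 and -0.14), 48 BGI and 44 Illumina peaks were lower, and the median of all BGI peaks moved from -0.08 to 0.06. Leaving out 1 library gave 51 to 55 lower and 14 to 17 higher peaks on BGI, and 46 to 51 and 15 to 17 on Illumina. Called promoters of the listed genes then numbered 38 to 41 (39 with all libraries). Requiring a change of 1 or more on the log2 scale left 32 lower and 9 higher peaks on BGI and 30 lower on Illumina. Windows of 1 kb held 31 lower and 6 higher peaks on BGI and 29 and 5 on Illumina, by construction with fewer peaks, and windows of 5 kb held 7 and 6 higher peaks. With the member gene's TSS as the nearest, 35 were lower and 8 higher on BGI and 7 higher on Illumina.

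The platform comparison depended on the replicate block, which pairs readings of 1 library: peaks called in MEFs went from 1 to 18, and in mESCs from 0 to 13. On the Illumina peak set, an alternative chosen after seeing the data, the block gave 18 and 14. A GC offset with the block left 9 and 3. DESeq2 called 2 and 2 without the block and 4 and 5 with it. Leaving out 1 library gave 0 to 1 called peaks in each cell type: the Srf peak was lost without MEF library 2, and 1 mESC peak appeared without MEF library 4. The interaction stayed at 0 in all of these. The cause of these shifts was not tested. Low mESC counts limit the size of the largest decreases.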
